A study of Homo sapiens with 24 samples.

Results

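The nuclear-encoded respiratory chain genes were described in 24 bulk RNA sequencing libraries of cardiac cells made from human embryonic stem cells. A gene was a member if its identifier mapped to a protein-coding symbol of the NDUFA, NDUFB, NDUFC, NDUFS or NDUFV series, to SDHA through SDHD, to CYC1, to a name beginning with UQCR or ATP5, or to a COX4 through COX8 subunit name without further letters. This rule took 85 of the 62757 genes in the table: 36 of complex I, 4 of complex II, 10 of complex III, 15 of complex IV (with NDUFA4, which was placed there) and 20 of complex V. It missed NDUFAB1, COX4I1, COX4I2, COX7A2L and NDUFA4L2. Of these, COX4I1, COX7A2L and NDUFA4L2 are given apart. The cells were of the HES3 line with a GFP reporter at NKX2-5 and an mCherry reporter at NR2F2, grown as embryoid bodies in a Wnt-modulating protocol for up to 14 days. All groups carried both reporters and a CRISPR-Cas9 target: TRAC as the control, or LHX2, ZNF503 or ZNF711. Each target was taken through AM and VM, names that the labels do not spell out and that are read here as the atrial protocol, with retinoic acid at day 4, and the ventricular protocol without it. Each of the 8 groups had 3 libraries, numbered 1 to 3. The labels do not say whether replicates came from separate cultures or clones, so p-values measure only the spread between these libraries.

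The respiratory chain passes electrons from NADH (complex I) and succinate (complex II) through complex III to oxygen at complex IV, and ATP synthase (complex V) uses the proton gradient that this builds to make ATP. Its core subunits are encoded partly in the nucleus and partly in mitochondrial DNA, and most accessory subunits are nuclear. Heart muscle relies heavily on this pathway, and maturing heart and skeletal muscle express muscle forms of some complex IV subunits, such as COX6A2 and COX7A1, beside the forms found in most tissues.

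Library totals ran from 2899786 to 7438010 counts, with a median of 5113566, and the members held 0.481% to 0.728% of a library. AM LHX2 replicates 1 and 2 had the lowest totals of the 24. Of the targeted genes, LHX2 was near the detection limit, at 0.517 to 2.09 CPM (counts scaled to library size) in AM LHX2 against 0.542 to 2.37 in AM TRAC, and ZNF711 was at 31.2 to 55.8 CPM in AM ZNF711 against 47.4 to 60.3 in AM TRAC. ZNF503 RNA was higher in its targeted libraries, with 255 to 367 CPM in the AM libraries labelled ZNF503 against 103 to 123 in AM TRAC, and 19.1 to 45.3 against 8.82 to 16.2 in VM. It was not called in either protocol (edgeR adjusted p = 0.2952 in AM). In VM, LHX2 was at 0.425 to 2.80 CPM against 1.85 to 4.02 in VM TRAC, and ZNF711 at 25.9 to 33.9 against 34.6 to 48.0. LHX2 and ZNF711 were not called in either protocol. Summed cardiomyocyte markers (12 genes, TNNT2, MYH6 and TTN among them) were at 11719 to 42270 CPM in every VM library and 15075 to 30048 in every AM library, so the labelled cell type had its markers throughout. Summed endoderm markers (8 genes, AFP and APOB among them) were at 1400 to 23852 CPM in VM and 198 to 1969 in AM, and ALB was at 0 in some libraries. VM replicate 3 stood apart from VM replicates 1 and 2: its endoderm sum was 22738 CPM in TRAC (3785 and 2999 in the others), 14985 in ZNF503 and 7938 in LHX2, and its cardiomyocyte sum was the lowest of 3 in each VM group. VM ZNF711 had a high endoderm sum in all 3 libraries. Counts of called members are given with and without these libraries where they differ. In bulk libraries, fewer cells of a type and less RNA per cell cannot be told apart.

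Promoters of 67 of the 85 members were found in RefSeq (GRCh38.p14), each as the 300 bases from 250 before to 50 after the start. The motif GCATGCGC of NRF1, a factor known for driving respiratory chain genes, stood in 13 of them (19.4%, against 4.26% of 15843 coding promoters). CCGGAAG, bound by ETS factors, was in 28.4% against 14.2%, and AAGATGGC, bound by YY1, was in 16.4% against 3.91%. The muscle motif MEF2 was in 1 promoter (1.49%, against 2.30%), that of COX6A2. The E-box CAGCTG was in 22.4% against 17.7%, and TATAAA in 10.4% against 9.63%. Both strands were searched, a match is a description and not a binding site, and no match says only that these letters are not in the window. The COX6A pair is printed because the 2 isoforms showed different values between the protocols, and ATP5ME and ATP5MJ, small membrane subunits of ATP synthase, because their log2 fold changes in AM LHX2 against AM TRAC were among the most negative of the members. Capitals mark the motifs, on either strand, and no printed motif overlaps another. COX6A1 (chr12:120437863-120438162, plus strand) holds 2 NRF1 matches and 1 ETS match, and COX6A2 (chr16:31428311-31428610, minus strand) holds TATAAA, the E-box and the loose form of the MEF2 motif. ATP5ME (chr4:674227-674526, minus strand) holds 1 NRF1 and 1 ETS match, and ATP5MJ (chr14:103921480-103921779, minus strand) holds none of the 6 motifs.
COX6A1: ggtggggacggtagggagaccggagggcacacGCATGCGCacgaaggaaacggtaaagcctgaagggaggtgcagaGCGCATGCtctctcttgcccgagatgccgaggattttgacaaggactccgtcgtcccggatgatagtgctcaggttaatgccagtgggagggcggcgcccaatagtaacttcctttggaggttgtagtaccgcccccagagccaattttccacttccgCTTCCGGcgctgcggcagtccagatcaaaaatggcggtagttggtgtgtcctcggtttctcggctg
COX6A2: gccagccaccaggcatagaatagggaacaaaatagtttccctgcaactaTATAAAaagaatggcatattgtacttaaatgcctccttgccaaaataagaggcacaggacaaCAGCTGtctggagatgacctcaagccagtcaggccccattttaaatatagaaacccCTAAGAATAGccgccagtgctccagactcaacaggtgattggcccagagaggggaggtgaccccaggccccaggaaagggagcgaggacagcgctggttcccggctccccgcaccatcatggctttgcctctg
ATP5ME: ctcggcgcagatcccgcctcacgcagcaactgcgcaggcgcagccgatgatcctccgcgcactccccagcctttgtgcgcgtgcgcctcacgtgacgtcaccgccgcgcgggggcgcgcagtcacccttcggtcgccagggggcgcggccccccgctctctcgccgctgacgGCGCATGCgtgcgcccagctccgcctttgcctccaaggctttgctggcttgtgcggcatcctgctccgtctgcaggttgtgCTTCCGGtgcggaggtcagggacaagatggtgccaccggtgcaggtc
ATP5MJ: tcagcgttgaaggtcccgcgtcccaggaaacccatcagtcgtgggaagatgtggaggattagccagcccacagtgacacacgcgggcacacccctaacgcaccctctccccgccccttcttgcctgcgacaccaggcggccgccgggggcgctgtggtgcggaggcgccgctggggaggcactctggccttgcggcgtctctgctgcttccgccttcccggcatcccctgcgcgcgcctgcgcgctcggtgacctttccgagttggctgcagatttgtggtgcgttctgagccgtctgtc

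Levels spanned a wide range within each complex. On the scale of CPM per kilobase of transcript, averaged over the 24 libraries, the catalytic beta and alpha subunits of ATP synthase stood highest of all members, ATP5F1B at 442 and ATP5F1A at 322. These 2 genes held 13.8% and 11.5% of the 704995 counts of the members. In complex IV the highest were COX7C at 210 and COX6B1 at 209 CPM per kilobase, both small accessory subunits. In complex III the core protein UQCRC2 was highest at 157, followed by UQCRB at 149, a subunit near the quinone site. In complex I the accessory subunits NDUFS5 at 116 and NDUFB9 at 115 CPM per kilobase led, and NDUFA7 at 2.65 and NDUFA9 at 4.71 were lowest. In complex II the membrane anchor SDHC was at 65.8 and the flavoprotein SDHA at 8.26 CPM per kilobase. These ranks depend on the lengths used, which are medians over transcripts. They were 460 bases for SDHC and 2107 for SDHA, with 3620 and 2062 counts, and 4502 bases for NDUFA9, with 2517 counts. UQCRHL, an intronless near-copy of UQCRH, was lowest in complex III at 1.19 CPM per kilobase. Counts of overlapping genes are uncertain: 33 members overlap another gene on the same strand and 42 one on the opposite strand, and whether the authors counted by strand is not given in the sources used here. Pseudogene rows exist for 48 members and, pooled, held 0.228% as many counts as the members. The share was larger for some low members. Pseudogene rows held 210 counts beside 2062 of SDHA, 249 beside 2517 of NDUFA9 and 38 beside 881 of NDUFV2. How reads that match both a member and a pseudogene were counted is not given.

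The other 5 members did not pass the filter on low counts and were not tested. COX7B2, a testis form of a complex IV subunit, had 0 counts in every library. COX8C and COX6B2, also testis forms, had 25 and 67 counts in all 24 libraries together. The readthrough ATP5MF-PTCD1 had 24 counts and ATP5MGL, a near-copy of ATP5MG, had 74. The remaining 80 members entered the tests: 36 of complex I, 4 of complex II, 10 of complex III, 12 of complex IV and 18 of complex V.

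Most members moved together across libraries. Of the 80, 63 correlated above 0.5 with the median of the other members over the 24 libraries, and the median correlation between 2 members was 0.45. These are descriptions over libraries that share groups, replicate numbers and depth, and no such share is given for other genes. The closest followers were UQCRC1 (0.93), a core protein of complex III, COX6B1 (0.93) and COX5B (0.93), a matrix-side subunit of complex IV. The members' median correlated by 0.85 with that of 17 citric acid cycle genes, by 0.59 with cytosolic ribosomal protein genes, by 0.50 with the mtDNA-encoded subunits and by 0.41 with cardiomyocyte markers. A group of 12 members correlated below 0, among them NDUFV2 (-0.59), a core iron-sulfur subunit of complex I, NDUFA7 (-0.58), NDUFA13 (-0.54), UQCRHL (-0.52) and SDHA (-0.38). NDUFV2 had 11.6, 7.50 and 10.1 CPM in AM LHX2, against 6.34, 4.63 and 5.72 in AM ZNF711, the reverse of most members. NDUFV2, NDUFA7 and NDUFA13 each overlap another gene on the same strand, and the part this plays was not tested.

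Replicate 1 was low for these genes. It had the lowest member median in 7 of 8 groups; the exception was AM LHX2, where replicate 2 was lowest. In a group, 34 (42.5%) to 61 (76.2%) of the 80 members were lowest in replicate 1, against 33.5% to 41.6% of all tested genes. Ribosomal protein genes had their lowest median in replicate 1 in 8 of 8 groups, citric acid cycle genes in 6, and mtDNA-encoded subunits and cardiomyocyte markers in 2 each. The library with the highest member median was AM ZNF711 replicate 2, at 0.41 above the members' own means on the log2 scale, with 72 of 80 members above their mean. The lowest was AM LHX2 replicate 2 at -0.37, with 13 of 80 above. The highest library of a member had a median of 2.21 times the CPM of its lowest library.

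**Figure D1:**
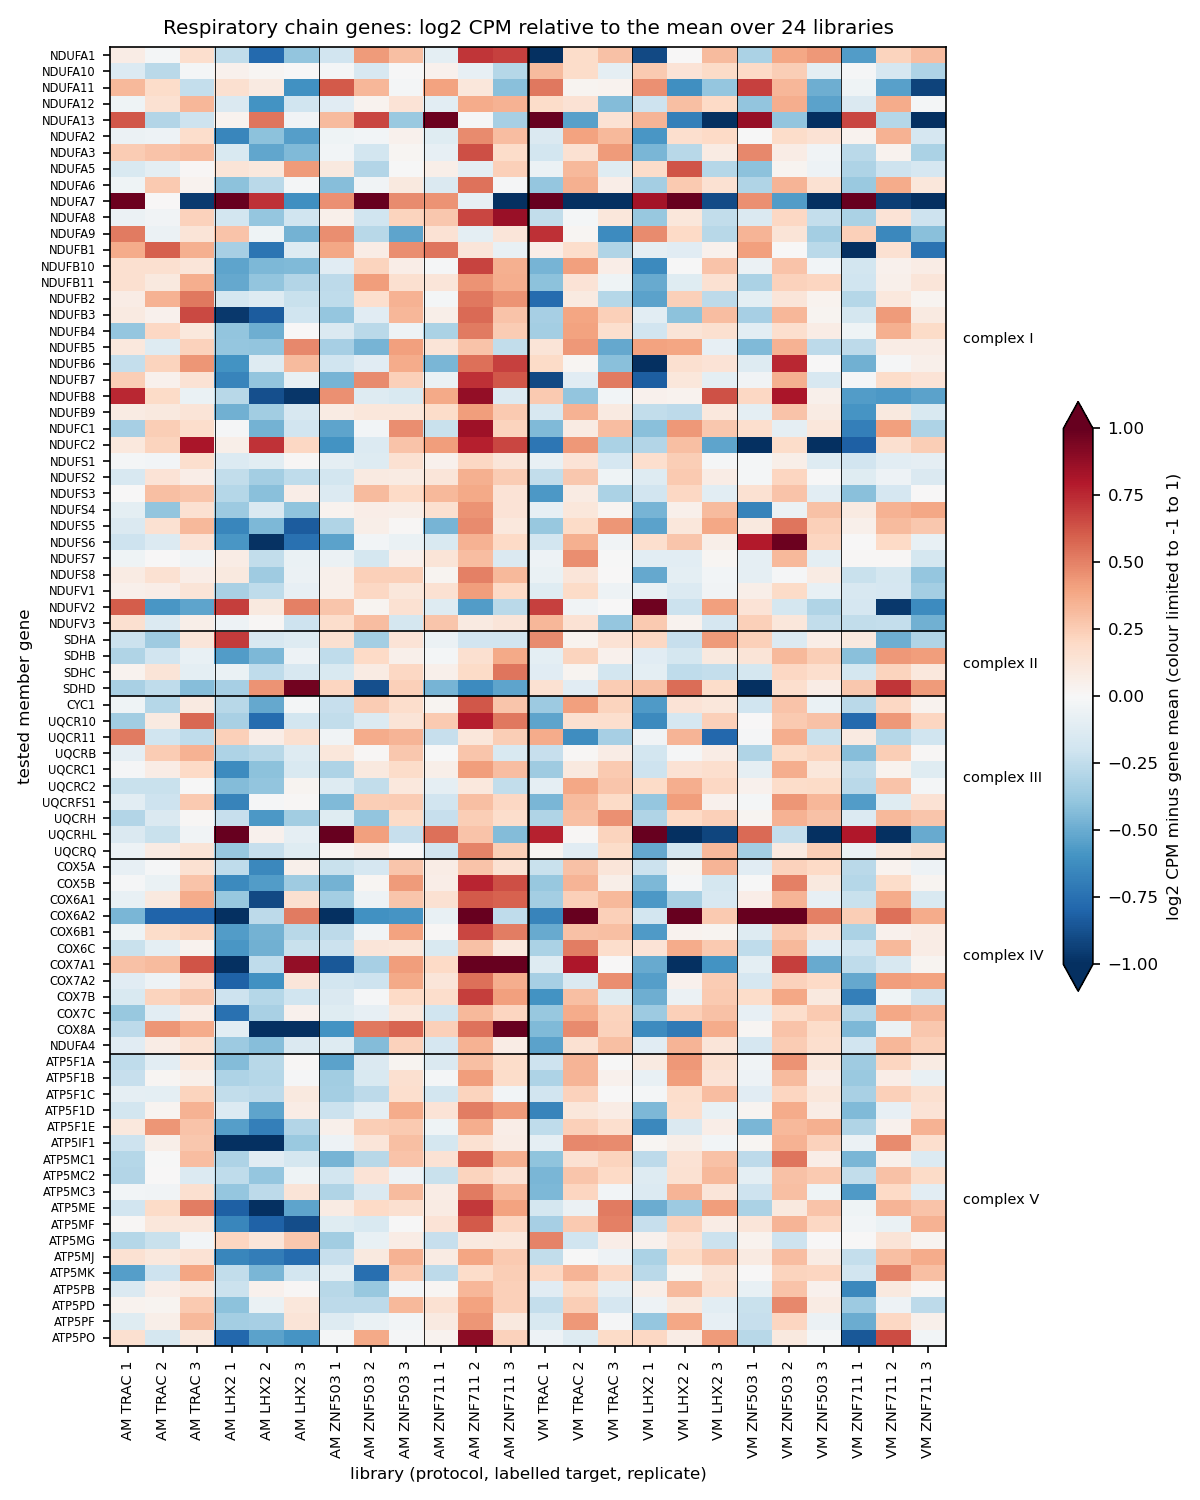
Each row is 1 of the 80 tested members, grouped by complex, each column is a library, and colour gives the log2 CPM minus the member's mean over 24 libraries, limited to -1 to 1. The AM groups stand left of the VM groups. Blue columns stand at AM LHX2 replicates 1 and 2 (medians -0.33 and -0.37) and red columns at AM ZNF711 replicate 2 (0.41), and replicate 1 is the lowest of 3 in 7 of 8 groups.

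Averaged over the 4 targets, the AM and VM protocols differed in 7 members. NDUFS8 (a core iron-sulfur subunit of complex I) and NDUFC2 (an accessory subunit) were higher in AM; NDUFS6 (complex I accessory), UQCRC2 and UQCRH (complex III), COX6A2 (complex IV) and ATP5IF1, the inhibitor of ATP synthase, were lower. NDUFC2 lies outside the naming rule and was named after its value was seen. The 7 calls of 80 stand against a background of 34.5% of 17724 tested genes called in either direction, 16.8% higher and 17.6% lower, so the share among members was below that of all genes. The members' median log2 fold change was 0.01 (42 of 80 positive, against 49.2% of all genes), and that of all genes was -0.01. With scaling by relative log expression that median was -0.01 and with library size alone 0.08, and leaving out 1 library gave -0.02 (AM ZNF711 replicate 2) to 0.04 (VM ZNF503 replicate 2), so it has no stable sign. Library size alone gave 7 members higher and 4 lower in place of 2 and 5 (21.4% and 14.1% of all genes), and DESeq2 gave 2 and 10 (16.8% and 19.4%). With the replicate number as a block, 4 were higher and 14 lower (background 20.8% and 20.9%), and all 7 calls were kept.

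In complex I, NDUFS6 was at 13.4, 24.5 and 34.6 CPM (lowest, median and highest of 12 libraries) in AM and at 23.8, 30.8 and 53.9 in VM. It fell by 0.47 on the log2 scale in AM (SE 0.11, edgeR adjusted p = 0.001085). By target its log2 fold change was -0.13 in TRAC, -0.95 in LHX2, -0.91 in the libraries labelled ZNF503 and 0.10 in ZNF711. The ranges overlapped, as they did for every called member over 12 against 12 libraries. NDUFS8 was at 47.6, 64.8 and 86.6 CPM in AM and 42.7, 57.7 and 66.2 in VM, a log2 fold change of 0.23 (SE 0.08, edgeR adjusted p = 0.01818). By target NDUFS8 had 0.08 in TRAC, 0.10 in LHX2, 0.18 in the libraries labelled ZNF503 and 0.56 in ZNF711. NDUFC2, with only 985 counts in all, was at 4.94, 9.26 and 13.8 CPM in AM and 3.22, 6.16 and 10.5 in VM (0.56, SE 0.20, edgeR adjusted p = 0.03557). NDUFC2 overlaps a gene on each strand, and NDUFS8 overlaps 2 genes on the same strand. Neither gene of complex II named by rank was called. SDHB, the iron-sulfur subunit, had a log2 fold change of -0.19 (edgeR adjusted p = 0.1422, and 0.04976 with the replicate block), and SDHD, a membrane anchor, one of -0.32 (0.1497).

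In complex III, UQCRC2 was at 162, 194 and 236 CPM in AM and 182, 250 and 287 in VM. It fell by 0.29 in AM (SE 0.08, edgeR adjusted p = 0.00531) and its log2 fold change was negative in all 4 targets. UQCRH, the hinge subunit, was at 44.5, 58.2 and 78.7 CPM in AM and 53.8, 79.4 and 91.6 in VM, and fell by 0.30 (SE 0.10, edgeR adjusted p = 0.02183; 0.0513 without VM TRAC replicate 3). These were the only members of complex III called here, of 10. In complex V, ATP5IF1 was at 17.3, 40.0 and 49.4 CPM in AM and 37.5, 43.3 and 55.9 in VM, and fell by 0.34 (SE 0.10, edgeR adjusted p = 0.01059). ATP5MF, a small membrane subunit, had a log2 fold change of -0.26 and was not called (edgeR adjusted p = 0.05608, and 0.03378 with the block). COX6C, an accessory subunit of complex IV, was likewise not called at -0.23 (edgeR adjusted p = 0.06993, and 0.00867 with the block). The block thus calls SDHB, ATP5MF and COX6C, all lower, and with a length correction beside it none of the 3 was called. Without VM TRAC replicate 1, 11 members were called in place of 7, without replicate 1 of every group 12 (30.1% of all genes), and without VM replicate 3 of every target 6 (28.5%).

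Within TRAC controls alone, 0 of 80 members were called between AM and VM, against 11.3% of all genes. At an unadjusted p below 0.05, 2 were higher and 2 lower (background 12% and 11.9%), and DESeq2 also called 0. The members' median was 0.02, against -0.03 for all genes, and it changed sign with scaling by relative log expression (-0.01) and without VM TRAC replicate 1 (-0.10; 0.10 without VM TRAC replicate 2). With the replicate block, NDUFB2 and NDUFS3 (complex I) were higher and UQCRC2 lower (19.4% of all genes called). NDUFB2 was at 36.2, 43.5 and 49.4 CPM in AM TRAC and 19.9, 36.5 and 28.0 in VM TRAC. Its log2 fold change was 0.61 (SE 0.22, edgeR adjusted p = 0.07628), and 0.004889 with the block; it was named after its value was seen.

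With LHX2 targeted, 6 members were lower in AM than in VM and 0 higher: NDUFS6, ATP5MJ, ATP5IF1, ATP5MF, COX6C and UQCRC2 (background 3.88% lower, 8.56% in either direction). Of these, ATP5MJ, ATP5IF1 and ATP5MF belong to complex V. The log2 fold change was positive for 14 of 80 members, against 50.2% of all genes, and the median was -0.27, against 0.00. By complex the medians were -0.20 (I), 0.03 (II), -0.22 (III), -0.32 (IV) and -0.29 (V). With the replicate block 17 members were lower (background 7.75%), 8 of them in complex V, and 14 of those also after a correction for gene length (8.05% of all genes).

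NDUFS6 had 18.0, 13.4 and 16.0 CPM in AM LHX2 replicates 1 to 3 and 30.5, 32.9 and 28.2 in VM LHX2. ATP5MJ had 30.2, 29.5 and 28.0 CPM in AM LHX2 and 38.4, 54.6 and 58.0 in VM LHX2. The groups did not overlap for either gene, nor for the other 4 called members. NDUFS6 fell by 0.95 (SE 0.22, edgeR adjusted p = 0.006037) and ATP5MJ by 0.79 (SE 0.18, edgeR adjusted p = 0.006343). ATP5IF1 had 17.3, 18.6 and 30.8 CPM in AM LHX2 and 40.4, 41.7 and 39.2 in VM LHX2 (-0.84, SE 0.21, edgeR adjusted p = 0.01119). ATP5MF, which overlaps 2 genes on the same strand, fell by 0.84, COX6C by 0.68 and UQCRC2 by 0.51, the last at an edgeR adjusted p of 0.0461. ATP5IF1 stood out for its replicate 3 in AM LHX2, which was closer to the VM values than the other 2.

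In all, 15 members had every AM LHX2 library below every VM LHX2 library (background 11.4%), and 0 had the reverse (12.5%). Leaving out 1 library gave 2 to 8 calls: 2 without AM LHX2 replicate 2, 3 without AM LHX2 replicate 1 or without VM LHX2 replicate 2, and 8 without VM LHX2 replicate 1. Without VM replicate 3 of every target it was 4. The median kept its sign in each of these (-0.36 to -0.18). Other gene groups were lower beside the members: ribosomal protein genes had a median of -0.67 (26 of 76 called lower), mtDNA-encoded subunits -0.79 (8 of 13 called lower) and citric acid cycle genes -0.31 (2 of 17). Other protein-coding genes under 1000 bases had a median of -0.19, against 0.01 for longer ones. Summed fibroblast markers were at 4148 to 5556 CPM in AM LHX2 and 1820 to 3292 in VM LHX2, with 3 of 8 called higher, and smooth muscle markers at 606 to 796 and 419 to 561, with 1 of 4 called higher. Endoderm markers were at 313 to 1001 and 1400 to 7938 CPM, with 1 of 8 called lower and 1 higher. These 3 sums did not overlap between the groups, while cardiomyocyte sums did (18722 to 26276 and 20890 to 39778 CPM). The part of these in the members' values was not tested.

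With ZNF711 targeted, the members had mostly positive values. In AM, 5 were higher than in VM: NDUFV1, NDUFA8, NDUFS8 and NDUFB9 of complex I and COX7B of complex IV (background 6.81%). SDHD of complex II was lower (background 6.42%). Of 80 members 66 had a positive log2 fold change, against 50.2% of all genes, and the median was 0.27, against 0.00. The medians were 0.36 (I), 0.03 (II), 0.23 (III), 0.36 (IV) and 0.23 (V), and all 7 core subunits of complex I were positive. With the replicate block 21 members were higher and 1 lower (background 11.4% and 12%), and the same 22 were called with the length correction added.

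NDUFV1, the NADH-binding core subunit, had 129, 155 and 133 CPM in the AM libraries, against 103, 103 and 91.3 CPM in VM. NDUFA8, an accessory subunit, had 45.2, 59.6 and 68.2 CPM in AM, against 29.9, 41.0 and 32.4 CPM in VM. NDUFS8 had 62.0, 86.6 and 76.5 CPM in AM, against 52.2, 54.0 and 46.6 CPM in VM. In all 3 genes every AM library lay above every VM library. Their log2 fold changes were 0.48 for NDUFV1 (SE 0.12, edgeR adjusted p = 0.008492), 0.74 for NDUFA8 (SE 0.19, edgeR adjusted p = 0.01005) and 0.56 for NDUFS8 (SE 0.15, edgeR adjusted p = 0.01491). COX7B, an accessory subunit of complex IV, had 83.0, 119 and 97.8 CPM against 45.8, 71.5 and 64.2 (0.72, SE 0.21, edgeR adjusted p = 0.02277). NDUFB9 rose by 0.48 with an edgeR adjusted p just below 0.05. SDHD went against the rest with 8.18, 7.25 and 7.81 CPM in AM, against 13.8, 19.0 and 15.5 CPM in VM (-1.06, SE 0.34, edgeR adjusted p = 0.03914). NDUFV1, NDUFS8, NDUFB9, COX7B and SDHD were named here because they were called. Of these, NDUFV1, NDUFS8 and SDHD overlap another gene on the same strand, and NDUFB9 on the opposite strand.

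The groups did not overlap for 19 members higher in AM ZNF711 (background 16.5%) and 1 lower (16.4%). Leaving out 1 library gave 1 to 6 calls: 1 without AM ZNF711 replicate 2, 2 without VM ZNF711 replicate 3 and 3 without AM ZNF711 replicate 3. Without VM replicate 3 of any target it was 3, and with library size alone or only these 2 groups in the fit it was 11 (13.9% and 19.8% of all genes called). Summed endoderm markers were at 9686 to 23852 CPM in VM ZNF711 and 974 to 1969 in AM ZNF711, and summed cardiomyocyte markers at 11719 to 17647 and 20753 to 30048. Smooth muscle markers were at 410 to 611 CPM in VM ZNF711 and 748 to 1086 in AM ZNF711. Ribosomal protein genes had a median of -0.49 (3 of 76 positive), so they did not share the members' direction here. Other groups did: summed mtDNA-encoded subunits were at 24664 to 27256 CPM in AM ZNF711 and 19351 to 23075 in VM ZNF711. Summed citric acid cycle genes were at 2069 to 2519 CPM and 1730 to 2146, which overlap, with the higher mean in AM. The part of the markers and of these groups in the members' values was not tested.

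In the libraries labelled ZNF503, where the RNA of the targeted gene was higher than in TRAC, 2 members were called lower in AM and 0 higher (background 4.1% lower, 8.86% in either direction). NDUFS6 had 18.6, 26.5 and 25.8 CPM in AM and 47.4, 53.9 and 31.6 in VM, and fell by 0.91 (SE 0.21, edgeR adjusted p = 0.005742). COX6A2 had 0.659, 2.56 and 2.60 CPM in AM and 9.38, 10.8 and 6.02 in VM, and fell by 2.17 (SE 0.63, edgeR adjusted p = 0.02771). The groups overlapped for neither gene. The median of the 80 members was -0.07, against 0.00 for all genes, with 30 positive (50% of all genes). That median ran from -0.18 without AM replicate 3 to 0.04 without VM replicate 2, so its sign turned on 1 library. Under the block 3 members were lower (background 7.06%), the third being ATP5F1A (-0.39, edgeR adjusted p = 0.01175), named after its value was seen. Summed endoderm markers were at 198 to 793 CPM in AM and 2405 to 14985 in VM, and fibroblast markers at 4848 to 7299 and 2099 to 4128, and their part was not tested. Leaving out AM replicate 1 or VM replicate 2 left 0 calls, and leaving out AM replicate 2 or VM replicate 1 left 1; without replicate 1 of every group it was 0.

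**Figure D2:**
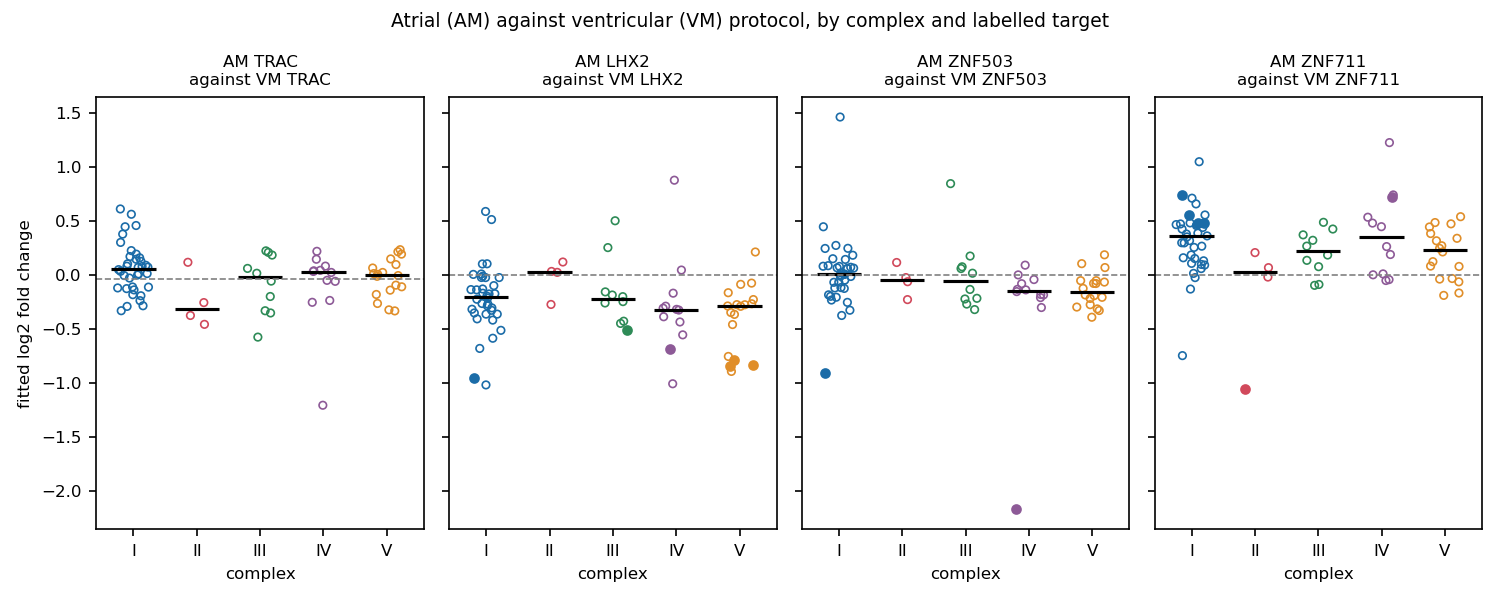
Each point is the fitted log2 fold change of 1 tested member, AM over VM, by complex, in 1 panel per target, with filled points for members called, a bar at each median and a dashed line at the median of all tested genes. Medians lie below 0 in LHX2 for complexes I, III, IV and V (-0.20, -0.22, -0.32 and -0.29), above 0 in ZNF711 for the same complexes (0.36, 0.23, 0.36 and 0.23), and near 0 in TRAC except for complex II (-0.31).

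Side by side, 3 members were positive in all 4 single-target comparisons (NDUFC2, NDUFS8 and UQCR11) and 8 were negative in all 4 (UQCRC2, UQCRH, ATP5MK, ATP5IF1, SDHB, COX7C, ATP5MC2 and ATP5F1C). NDUFS6, with the lowest p in the mean comparison, was not among them.

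The muscle isoforms of complex IV gave different pictures. COX6A2, the heart and skeletal muscle form of subunit 6A, was at 0.642, 2.75 and 9.26 CPM (lowest, median and highest of 12) in AM and 2.46, 5.72 and 12.8 in VM. It fell by 1.10 on the log2 scale in the mean over targets (SE 0.30, edgeR adjusted p = 0.006277), with 594 counts in all. By target its log2 fold change was -1.21 in TRAC, -1.01 in LHX2, -2.17 in the libraries labelled ZNF503 and 0.00 in ZNF711. Its partner COX6A1, the form of most tissues, had 12.4, 25.7 and 36.2 CPM in AM and 15.6, 21.6 and 30.5 in VM, and was not called (0.10, edgeR adjusted p = 0.6041). As a share of the pair, per kilobase, COX6A2 made up 13.9% ± 7.41 (SD, n = 12 libraries) in AM and 26.5% ± 8.44 in VM. This share spanned 4.44% to 26.0% over the AM libraries, against 14.8% to 47.0% over the VM libraries, and so overlapped. By target the VM mean was 31.2% in LHX2, 30.4% in the libraries labelled ZNF503, 23.4% in ZNF711 and 21.1% in TRAC, and the AM mean 17.9%, 9.27%, 17.4% and 11.1%. In ZNF711 the lower AM share went with COX6A1, whose log2 fold change was 0.45 there. Cardiomyocyte markers also differed between the protocols, with 7 of 12 called lower and 1 higher in AM (background 17.6% and 16.8%). In ZNF711 their sum was higher in AM, at 20753 to 30048 CPM against 11719 to 17647 in VM. For the other targets the mean of that sum was lower in AM. The part of these markers in the COX6A2 value was not tested. The marker list includes chamber forms of myosin (MYH6, MYH7, MYL3 and MYL7), so it is not a measure of cardiomyocyte content alone.

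COX7A1, the muscle form of subunit 7A, was at 1.61, 8.20 and 20.3 CPM in AM and 2.13, 5.89 and 11.8 in VM and was not called (0.49, edgeR adjusted p = 0.1448). Without AM LHX2 replicate 1 it was called (0.60, edgeR adjusted p = 0.04673), and without AM LHX2 replicate 3 its value was 0.27. By target it was 0.15 in TRAC, 0.88 in LHX2, -0.30 in the libraries labelled ZNF503 and 1.23 in ZNF711, the last with an edgeR adjusted p of 0.1071 (0.04288 under the block). Its share of the pair with COX7A2 was 10.5% ± 3.90 (SD, n = 12 libraries) in AM and 8.16% ± 3.52 in VM. COX7A2 had a log2 fold change of -0.06 (edgeR adjusted p = 0.7576). The difference between COX6A2 and COX7A1 was not tested.

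**Figure D3:**
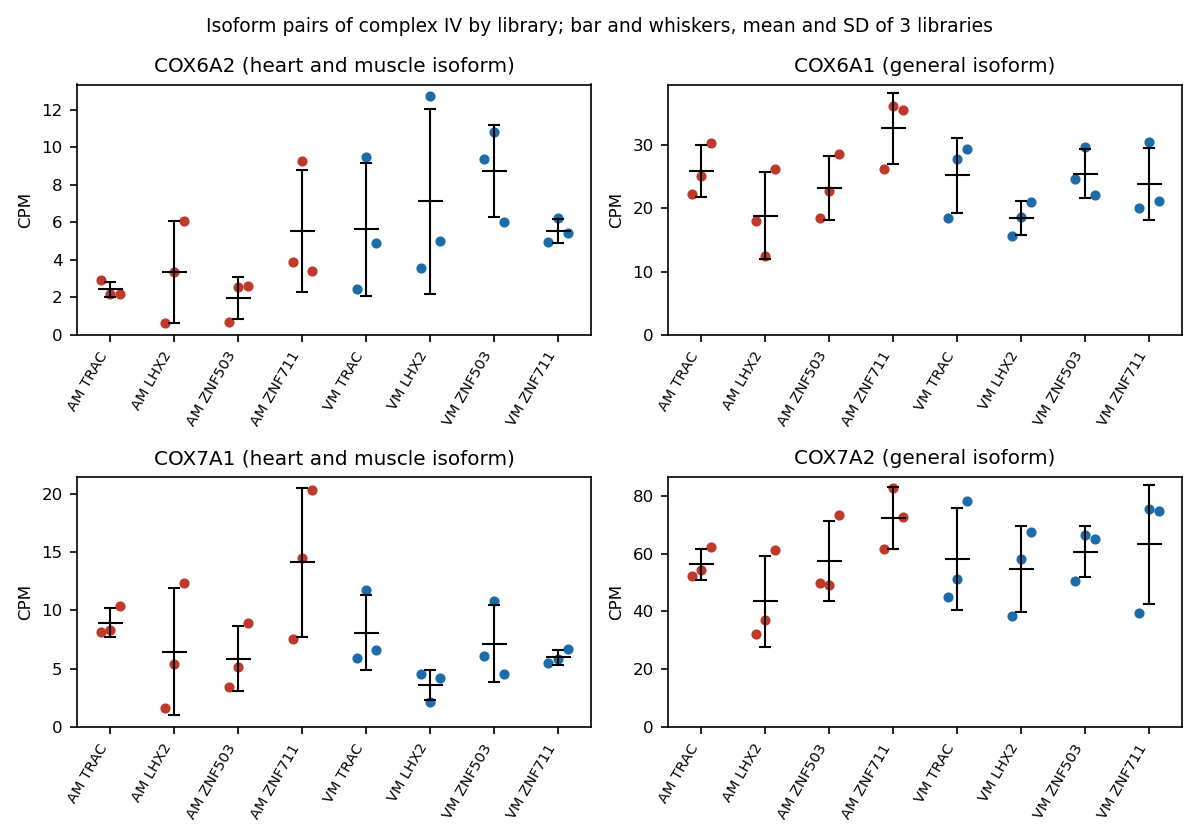
The CPM of COX6A2, COX6A1, COX7A1 and COX7A2 are plotted by group in 4 panels, with 1 point per library (red for AM, blue for VM) and the mean and SD of 3 libraries in black. COX6A2 spans 0.642 to 9.26 CPM over the AM libraries and 2.46 to 12.8 over the VM libraries, while COX7A1 spans 1.61 to 20.3 and 2.13 to 11.8.

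Against TRAC in the same protocol, 0 members were called in any of the 6 comparisons; 3 comparisons in each protocol share their TRAC libraries. Over all genes these calls were 0 (0%) in 5 of them and 3 (0.0169%) in VM ZNF711. AM LHX2 had the lowest median of the 6. Its members stood at a median of -0.28, against 0.00 for all genes, and 11 of 80 were positive (49.6% of all genes). At an unadjusted p below 0.05, 25 were lower and 1 higher, where 3.94% of all genes were lower and 3.8% higher. In 31 members every AM LHX2 library was below every AM TRAC library (background 9.72%), and in 3 above (9.28%). The medians were -0.30 (I), 0.09 (II), -0.21 (III), -0.36 (IV) and -0.22 (V). With the replicate block, 12 members were called lower (background 0.677%), among them ATP5MJ, ATP5ME, ATP5IF1, ATP5MF and ATP5F1E of complex V. DESeq2 called 4 (0.243% of all genes) and a fit of only the 2 groups 6 (1.09%), and leaving out any 1 library gave 0.

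ATP5MJ had 53.1, 51.5 and 53.0 CPM in AM TRAC and 30.2, 29.5 and 28.0 in AM LHX2, with narrow spread in each group. Its log2 fold change was -0.85 (SE 0.18, edgeR adjusted p = 0.1648), and -0.86 with the replicate block (edgeR adjusted p = 0.006856). ATP5ME, named after its value was seen, had 41.8, 54.6 and 68.1 CPM in AM TRAC and 27.0, 19.4 and 33.1 in AM LHX2 (-1.04, with an edgeR adjusted p of 0.00658 under the block). In VM LHX2 the same gene had 33.8, 37.0 and 63.8 CPM against 42.3, 45.8 and 68.7 in VM TRAC, which overlap. In VM LHX2 as a whole the members' median was -0.02 (-0.14 without VM TRAC replicate 1 and 0.06 without VM LHX2 replicate 1), and the lowest p was that of COX7A1 (-1.15, SE 0.52, edgeR adjusted p = 0.9999). It was the only member lower at an unadjusted p below 0.05 there (background 1.56%).

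Short transcripts were lower in AM LHX2 in general. Members are short, with a median of 749 bases (323 to 4502), and 55 of the 80 tested are under 1000. In AM LHX2 against AM TRAC, members under 1000 bases had a median of -0.36 and longer ones -0.15, and other protein-coding genes had -0.18 and -0.01. The 63 other genes of up to 500 bases had a median of -0.60, lower than the 8 members of that class at -0.56. With the block and a correction for length (0.406% of all genes lower), 7 of the 12 members remained called: ATP5F1E, ATP5IF1, ATP5ME, ATP5MJ, NDUFB11, NDUFS5 and UQCRC1. Ribosomal protein genes had a median of -0.44 (62 of 76 without overlap and lower), mtDNA-encoded subunits -0.53 and cardiomyocyte markers 0.05. Summed fibroblast markers were at 4148 to 5556 CPM in AM LHX2 and 5704 to 7040 in AM TRAC, and smooth muscle markers at 606 to 796 and 919 to 1497, so both were lower in every AM LHX2 library, with 0 of 8 and 0 of 4 called. The part of length, depth and these groups in the members' values was not tested beyond the length correction.

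**Figure D4:**
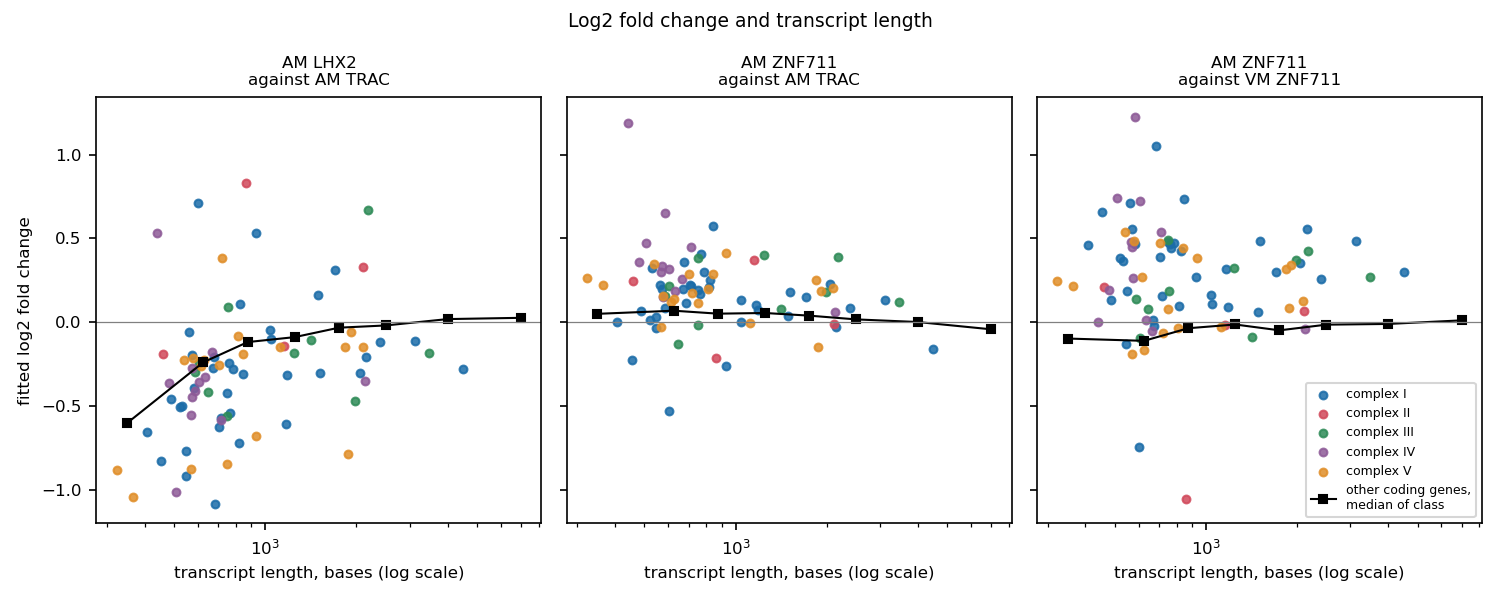
Log2 fold change is plotted against transcript length in bases on a log axis for 3 comparisons (AM LHX2 over AM TRAC, AM ZNF711 over AM TRAC, AM ZNF711 over VM ZNF711), with 1 point per tested member coloured by complex and black squares at the medians of other protein-coding genes, drawn at a point inside each length class. In AM LHX2 the squares run from -0.60 in the shortest class to 0.03 in the longest, and 11 of 80 members lie above 0.

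In AM ZNF711 the members' median was 0.18 and 66 of 80 were positive (50.8% of all genes), with all 12 tested members of complex IV among them (median 0.32). NDUFA8 had the lowest p, with 35.8, 36.4 and 43.9 CPM in AM TRAC and 45.2, 59.6 and 68.2 in AM ZNF711 (0.57, SE 0.19, edgeR adjusted p = 1). At an unadjusted p below 0.05, 2 members were higher (background 1.52%). Citric acid cycle genes were positive in 16 of 17 (median 0.17) and cardiomyocyte markers had a median of 0.41. Summed endothelial markers were at 335 to 390 CPM in AM ZNF711 and 469 to 690 in AM TRAC, and epicardial markers at 26.4 to 66.4 and 90.8 to 109. The part of these was not tested. Without AM ZNF711 replicate 2 the members' median was 0.07. In VM ZNF711 the median was -0.08 with 28 positive (49.3% of all genes; -0.20 without VM TRAC replicate 1 and -0.01 without VM TRAC replicate 2), and 4 members were lower at an unadjusted p below 0.05 (background 5.37%). NDUFA10, an accessory subunit of complex I, had the lowest p (-0.31, SE 0.13, edgeR adjusted p = 0.4598). The mtDNA-encoded subunits stood lower there, with a median of -0.63 and 12 of 13 without overlap and lower (4.72% of all genes), beside -0.96 for cardiomyocyte markers.

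In the libraries labelled ZNF503, whose ZNF503 RNA was higher than in TRAC, the members' medians against TRAC were -0.04 in AM and 0.04 in VM. Leaving out 1 library gave -0.13 to 0.05 and -0.07 to 0.12, so neither had a stable sign. The lowest p belonged to NDUFA3 in AM (-0.35, SE 0.20, edgeR adjusted p = 1) and to NDUFS6 in VM, with 23.8, 34.9 and 26.5 CPM in VM TRAC and 47.4, 53.9 and 31.6 in VM ZNF503 (0.64, SE 0.21, edgeR adjusted p = 1). DESeq2 also called 0 in these comparisons, and at an unadjusted p below 0.05 there were 0 members in AM (1.74% of all genes) and 1 higher in VM (0.7%).

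Whether a target acted differently in the 2 protocols was tested as an interaction, and 0 members were called for LHX2, ZNF503 or ZNF711 (0%, 0% and 0.00564% of all genes), by edgeR or DESeq2. At an unadjusted p below 0.05 there were 9 members lower for LHX2, 1 lower for ZNF503 and 4 higher for ZNF711, against 1.83%, 0.925% and 3.32% of all genes. The medians were -0.27, -0.08 and 0.28. ATP5MJ had the lowest p for LHX2 (-1.02, SE 0.25, edgeR adjusted p = 0.9999), which became 0.04919 with a replicate block in each protocol (0.0282% of all genes lower). NDUFS6 was lowest for ZNF503 (-0.78, SE 0.30, edgeR adjusted p = 1) and NDUFA8 for ZNF711 (0.65, SE 0.27, edgeR adjusted p = 0.6974).

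Genes that work with the members were compared between protocols in the same mean over targets. The 13 mtDNA-encoded subunits had 11 called lower in AM and 0 higher (median -0.40), for example MT-ND1 at -0.76 (SE 0.10, edgeR adjusted p = 2.325e-06) and MT-ND3 at -0.73, both of complex I. The nuclear subunits of the same complexes, at a median of 0.01, did not share that value in the mean over targets. The difference between the lists was not tested. By target, the mtDNA sum was higher in AM for ZNF711, at 24664 to 27256 CPM against 19351 to 23075 in VM. In LHX2 it was lower in AM, at 17937 to 22146 CPM against 24236 to 36904. The members' median went in the same direction as the mtDNA sum in both targets. In TRAC and the libraries labelled ZNF503 the mean of the mtDNA sum was lower in AM. Of the 5 subunits missed by the naming rule, COX7A2L, which joins complexes III and IV, fell by 0.44, and NDUFA4L2, known as a hypoxia-responsive gene, fell by 0.89. COX4I1 was at -0.01 and not called.

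Among assembly factors, 2 of 16 for complex I were lower, NUBPL (-0.70), which delivers iron-sulfur clusters, and ECSIT (-0.25). For complex III 1 of 6 was lower, UQCC1 (-0.30), and for complex IV 3 of 25 were lower and 1 higher: COX14 (-0.65), COX18 (-0.30) and SCO1 (-0.21), and COX20 (0.42). For complexes II and V 0 of 4 were called in each. Of 8 carriers and exchange proteins 4 were lower: VDAC2 (-0.34) and VDAC1 (-0.33), channels of the outer membrane, CKMT2 (-0.79), the muscle mitochondrial creatine kinase, and the phosphate carrier SLC25A3 (-0.22). Among 15 nuclear regulators 6 were lower and 2 higher, and the coactivators PPARGC1B (-1.18) and PPARGC1A (0.68) went in opposite directions. PPARA (-0.69), a fatty acid sensor, and TFB2M (-0.79), a mitochondrial transcription factor, were lower. In the citric acid cycle 3 of 17 were lower and 0 higher: SUCLG2 (-0.70), CS (-0.28) and DLST (-0.21). Beside all of these, 58 of 76 ribosomal protein genes were lower (median -0.43), and 34.5% of all genes were called, so these shares are to be read against that background.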

How the data were processed

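The deposited table gives, for each of 24 libraries, a raw read count per gene as made by the authors. The submitters' processing notes name STAR and GRCh38; the counting program, strandedness and annotation release are not given in the sources used here. The labels give polyA RNA in one place and RiboErase depletion (KAPA, Roche) in another. Members and gene lists were chosen with earlier results of these data known. Of 62757 genes, filterByExpr kept 17724 (80 of 85 members), tested with edgeR 4.0.16 (R 4.3.3) by robust quasi-likelihood fits with TMM scaling (factors 0.905 to 1.08) and 1 mean per group, with all 24 libraries in a single fit. In each of 14 comparisons the Benjamini-Hochberg adjustment ran over the 17724 genes, and a gene was called below 0.05. CPM use TMM-scaled library sizes, and log2 CPM use a prior count of 2. Log2 fold changes are those of the edgeR fit, which was not given that prior count, so low-count genes were not shrunk by it. Lengths are medians of GENCODE 29 basic protein-coding transcripts. The text names complex IV isoforms, the 2 lowest p per complex in the mean comparison, the lowest p in each other comparison and up to 4 genes of each other list; any other name was chosen after its value was seen, including all members called in a single target. Same-numbered replicates were treated as paired in the block, because deviations from group means correlated above 0.1 in all 30 pairs (0.12 to 0.79, over 11428 genes); what the number stands for is not stated. The block lowered the biological coefficient of variation from 25.0% to 16.9%. Alternatives were other scaling, filters, DESeq2 1.42.0, replicate blocks, a length correction, the 5 missed subunits and single libraries left out; those without replicate 1 or VM replicate 3 were added after seeing the data. The fit was tested on simulated counts with larger changes than nearly all members showed, the same dispersion for every gene and no replicate effect. That test therefore says nothing about small changes or about the replicate structure.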

Additional observations from a re-analysis of the deposited data

How the results depend on the processing

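Depth limits the low members most: COX6A2 had 594 counts and NDUFC2 985 in all libraries, and intervals for such genes are wide. Calls over all genes also depend on the fit, and in TRAC they rose from 11.3% to 19.4% with the replicate block. The counts that follow are thus not by themselves a result about the members. Shares of all genes are not given here for the block within each protocol or for single libraries left out. Counts of called members moved by over 1.5 times in these cases. With library size alone they were 2 in TRAC, 11 in ZNF711 and 11 in the mean over targets. With the replicate block they were 3 in TRAC, 17 in LHX2, 22 in ZNF711, 18 in the mean and 12 in AM LHX2 against AM TRAC. With a replicate block within each protocol they were 4 in TRAC, 19 in LHX2, 4 in ZNF503, 24 in ZNF711, 21 in the mean, 17 in AM LHX2 against AM TRAC, 1 in VM ZNF711 against VM TRAC and 1 in the LHX2 interaction. With the block and the length correction they were 3, 14, 22, 15 and 7 (TRAC, LHX2, ZNF711, the mean and AM LHX2 against AM TRAC). With only the groups compared they were 11 in ZNF711 and 6 in AM LHX2 against AM TRAC, with DESeq2 12 in the mean and 4 in AM LHX2 against AM TRAC, and with no filter 5 in the last. Without replicate 1 of any group they were 0 in ZNF503 and 12 in the mean, and without VM replicate 3 of any target 1 in TRAC and 3 in ZNF711. Leaving out 1 library gave 0 to 2 in TRAC, 2 to 8 in LHX2, 0 to 2 in ZNF503, 1 to 6 in ZNF711 and 6 to 11 in the mean, and 0 in the other comparisons. COX7A2 in the mean comparison (-0.06) changed sign to 0.0199 with library size alone, to 0.0163 with the replicate block and length correction, to 0.0165 without VM TRAC replicate 3 and to 0.0963 without VM replicate 3 of any target; leaving out 1 library gave -0.1495 to 0.0165. With the replicate block ZNF503 went from 2 to 3. The causes were not tested.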

Other observations

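Members that did not pass the filter on low counts were seen at a few counts only. COX6B2 ran from 0 to 1.88 CPM and COX8C from 0 to 1.24 CPM over the 24 libraries, and COX7B2 had 0 counts in each. Lists of markers of other cells, compared between AM and VM in the mean over targets, showed 3 of 8 fibroblast markers and 4 of 6 endothelial markers higher in AM and 0 lower in either list, where 16.8% of all genes were higher and 17.6% lower.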
